A study of Mus musculus with 2 samples.

Results

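Chemokine and interleukin genes of mouse embryonic fibroblasts were described in 2 poly(A)+ RNA-seq libraries, 1 from a culture labelled Adar2-WT (genotype Adar2+/+) and 1 from a culture labelled Adar2-KO (genotype Adar2-/-). Members were the genes whose symbol is Ccl, Cxcl, Cx3cl or Xcl followed by a number, or Il followed by a number and at most one letter from a to f. There were 67 members (34 chemokine and 33 interleukin genes) among 24015 genes of the expression table. The rule uses symbols, with no measured value, but members and lists were chosen with earlier results of these data known. Both cultures were grown in DMEM with 10% fetal bovine serum and antibiotics, and the labels name no stimulus, strain, passage number or number of embryos. Each genotype has 1 library, so the spread between cultures is unknown and no test was made.

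Chemokines are small secreted proteins that guide leukocytes through G-protein-coupled receptors, and interleukins are secreted signals between leukocytes and tissue cells. Fibroblasts make many of them. One set of these genes is switched on by interferon through STAT and IRF transcription factors, which bind the interferon-stimulated response element (ISRE). Another is switched on by tumour necrosis factor, interleukin-1 and microbial products through NF-kB, which binds kB sites. Some genes, Cxcl10 and Ccl5 among them, are known to respond to both routes. Adar2 edits adenosine to inosine in double-stranded RNA.

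The promoters of 5 members are shown because they hold motifs known for these routes and belong to genes with unlike values below. The sequences are from RefSeq on build GRCm38.p6, matched by symbol, and run 5′ to 3′ towards the start site. Capitals mark matches to the ISRE motif (TTTC, any 2 bases, TTTC) or the kB motif (GGGA, any 2 bases, TTCC), searched on both strands. For Cxcl10 all 250 bases before the start are given, and for the others a stretch around the match.
Cxcl10 (chr5:92348890-92349139, minus strand): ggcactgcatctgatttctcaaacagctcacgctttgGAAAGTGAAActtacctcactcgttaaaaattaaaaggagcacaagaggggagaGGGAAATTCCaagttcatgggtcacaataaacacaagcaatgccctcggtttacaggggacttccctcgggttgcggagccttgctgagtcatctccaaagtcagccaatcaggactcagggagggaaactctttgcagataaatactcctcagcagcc
Cxcl1 (chr5:90891149-90891209, plus strand): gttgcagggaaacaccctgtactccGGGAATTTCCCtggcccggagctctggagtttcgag
Cxcl2 (chr5:90903777-90903837, plus strand): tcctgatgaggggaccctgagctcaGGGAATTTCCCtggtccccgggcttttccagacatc
Cxcl3 (chr5:90786003-90786063, plus strand): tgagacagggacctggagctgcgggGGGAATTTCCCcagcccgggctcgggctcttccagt
Il6 (chr5:30013045-30013104, plus strand): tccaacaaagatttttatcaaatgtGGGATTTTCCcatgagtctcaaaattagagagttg

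The Cxcl10 stretch holds an ISRE match beginning 213 bases before the start and a kB match beginning 159 bases before it. In Cxcl1, Cxcl2 and Cxcl3 the capitals are the same 11 bases, in which a kB match on one strand overlaps one on the other, and they begin 71, 97 and 73 bases before the start. The Il6 match begins 44 bases before the start. Promoter windows of 300 bases, reaching 50 bases past the start, were at hand for 47 members (54 windows). An ISRE match was in 5 of them (9.26%), against 3.28% of the 20284 windows of all genes in the expression table. A kB match was in 7 (13.0%), against 1.39%. Of the interferon-induced members listed below, 4 had windows (Cxcl9, Cxcl10, Ccl8 and Ccl12), and only that of Cxcl10 held an ISRE match. Ccl5, Cxcl11 and Il15 of that list had no window and were not searched. The other ISRE matches were in Cxcl14, Ccl19, Il19 and Il4, outside that list. Of the NF-kB-induced members, 8 had windows, and 4 held a kB match (Cxcl1, Cxcl2, Cxcl3 and Il6), while that of Ccl20 held none. Cxcl5, Ccl2 and Ccl7 had no window and were not searched. A match is a stretch of letters and not a measured binding site. Of 17 interferon-stimulated genes with windows (21 windows), 11 windows held the ISRE motif.

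Levels are given as RPKM, the reads of a gene divided by its length in kilobases and by the library total, and rested on 9446911 reads in the library labelled WT and 9546998 in the library labelled KO. The targeted gene, listed as Adarb1, did not go with the labels: it had 18.4 RPKM in the library labelled WT and 25.8 RPKM in the library labelled KO, although a level over the whole gene cannot check a partial deletion. The number of listed edited sites did go with them, at 654 in the library labelled WT and 110 in the other. Adar, the gene of another editing enzyme, was also lower in the library labelled KO. It had 28.0 RPKM (1600 reads) in the library labelled WT and 18.7 RPKM (1081 reads) in the other. Its part in the site counts was not tested. The cultures are called by their labels throughout, and every direction rests on those labels. Levels of abundant genes came up against a ceiling of about 1 read per base, which is 106 RPKM for the library labelled WT and 105 RPKM for the one labelled KO. The highest value of any gene was 107.0 and 124.3 RPKM, in the same order.

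More members were lower than higher in the library labelled KO (21 and 8 of those compared). Over all 13867 genes compared, 6826 ratios were below 0 and 7041 above. Of the 67 members, 46 had a read in a library, and 29 reached 1 RPKM in at least one and were compared by the log2 ratio of KO over WT on the scale of RPKM + 1. This scale understates the difference of low genes. At least 2-fold lower were 12 of the 29 (41.4%), against 7.46% of all 13867 genes compared in this way. At least 2-fold higher on this scale were 0 of the 29, against 4.42% of all genes, while Cxcl14 was 2.27-fold higher without the pseudocount. The median log2 ratio of the members was -0.64, and that of all genes 0.01. The 12 were 8 of the 19 compared chemokine genes and 4 of the 10 compared interleukin genes. By the authors' deposited GFOLD value, a log2 fold change shrunken toward 0 where reads are few, 11 of the 29 stood at -1 or below (5.6% of all genes compared) and 0 at 1 or above (3.21% of all genes). The nearest members on either side of the 2-fold limit were Il6 (log2 ratio -1.18), past it, and Cxcl14 (0.98), short of it on the upper side.

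**Figure D1:**
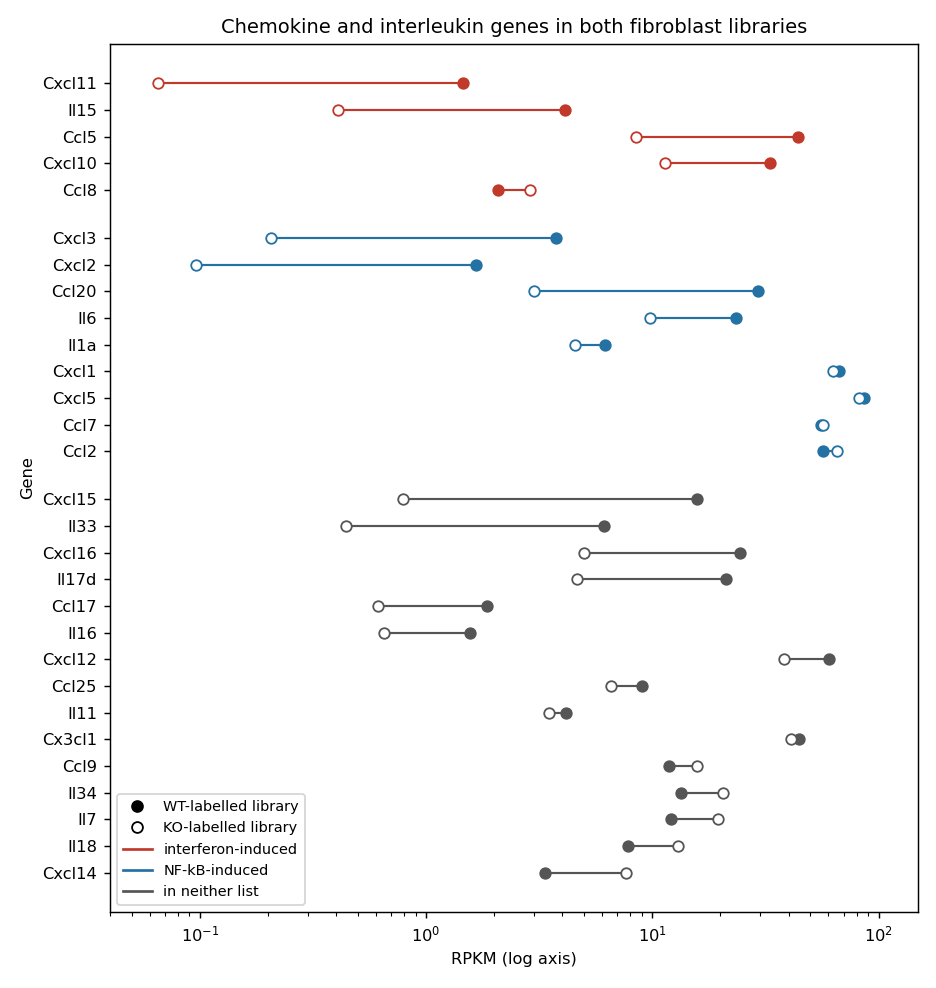
RPKM (log axis) of the 29 compared members in the library labelled WT (filled) and the library labelled KO (open), 1 value per library, grouped as interferon-induced, NF-kB-induced or in neither list. Cxcl5, Cxcl1, Ccl7 and Ccl2 lie at the right end with both points close together, while the open points of Cxcl10, Ccl5, Ccl20, Cxcl15, Cxcl16 and Il33 lie well to the left of the filled ones.

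Interferon-induced members were lower in the library labelled KO in 4 of the 5 that were compared, all 4 by at least 2-fold. The share at least 2-fold lower was thus 80.0%, against 7.46% of all genes compared. The list held Cxcl9, Cxcl10, Cxcl11, Ccl5, Ccl8, Ccl12, Il15 and Il27, and its median log2 ratio was -1.46. Cxcl10, a ligand of Cxcr3 that draws activated T cells, had 33.0 RPKM (343 reads) in the library labelled WT and 11.3 RPKM (119 reads) in the library labelled KO. The level was thus 2.91-fold lower, and the log2 ratio of reads per library total was -1.54 with a 95% interval of -1.86 to -1.24. Such intervals are exact given the sum of the reads of both libraries, and they cover counting error only. Ccl5 (RANTES), which draws T cells and monocytes, had 43.9 RPKM (220 reads) and 8.48 RPKM (43 reads), 5.17-fold lower (interval -2.88 to -1.89).

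Il15, which sustains natural killer cells and memory T cells, had 4.12 RPKM (50 reads) in the library labelled WT and 0.408 RPKM (5 reads) in the library labelled KO. Cxcl11, another Cxcr3 ligand, had 22 reads and 1 read (1.45 and 0.0653 RPKM; interval -9.84 to -1.85). Cxcl9, also a Cxcr3 ligand, did not reach 1 RPKM, with 23 reads and 0 reads. With 3 reads put in place of the count of 0, Cxcl9 was 7.75-fold lower in the library labelled KO. That value leaves out the counting error of the 23 reads. The upper end of the interval of its log2 reads ratio was -2.54. The Cxcr3 ligands Cxcl9, Cxcl10 and Cxcl11 thus had their higher value in the library labelled WT, while Cxcr3 itself had 0 reads in both. Ccl8, a monocyte chemoattractant, went the other way, at 2.07 RPKM (10 reads) and 2.87 RPKM (14 reads), a difference within counting error (interval -0.81 to 1.80). Il27 had 3 reads and 0 reads, and Ccl12 had none in either library.

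NF-kB-induced members were divided into abundant genes that were close in both libraries and others that were lower in the library labelled KO. The list held Cxcl1, Cxcl2, Cxcl3, Cxcl5, Ccl2, Ccl3, Ccl4, Ccl7, Ccl20, Il1a, Il1b and Il6. Of the 9 compared, 4 (44.4%) were at least 2-fold lower, against 7.46% of all genes, and 5 were within 2-fold. The median log2 ratio was -0.37, which is 1.10 above that of the interferon-induced members. Both medians are descriptions of few genes, since the lists have 9 and 5 compared members and their ranges overlap (-2.92 to 0.21 and -2.24 to 0.33). The lists were chosen with earlier results of these data known, so they give the contrast no independent support.

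The neutrophil attractants Cxcl5 and Cxcl1, ligands of Cxcr2, were the most abundant members in the library labelled WT. Cxcl5 had 86.2 RPKM (1349 reads) there and 81.8 RPKM (1293 reads) in the library labelled KO (interval of the log2 reads ratio -0.19 to 0.04). Cxcl1 had 66.7 RPKM (598 reads) and 62.9 RPKM (570 reads; interval -0.25 to 0.08). The monocyte attractants Ccl2 and Ccl7, ligands of Ccr2, were next to each other in level in the library labelled WT, while Cxcl1 lay between them in the other. Ccl2 had 56.7 RPKM (432 reads) and 65.6 RPKM (505 reads), slightly higher in the library labelled KO beyond counting error (interval 0.02 to 0.40). Ccl7 had 55.8 RPKM (421 reads) and 57.0 RPKM (435 reads; interval -0.16 to 0.23). These 4 genes had 0.527 to 0.815 reads per base in the library labelled WT and 0.544 to 0.781 in the library labelled KO, within a factor of 2 of the ceiling, so larger differences between them could have been compressed. Whether they were was not tested.

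Ccl20, Il6, Cxcl3 and Cxcl2 were the 4 members of this list at least 2-fold lower in the library labelled KO. Ccl20, the ligand of Ccr6, had 29.3 RPKM (222 reads) and 3.004 RPKM (23 reads), 9.75-fold lower (interval -3.97 to -2.66). Il6, which drives the acute phase response, had 23.4 RPKM (240 reads) and 9.73 RPKM (101 reads), 2.401-fold lower (interval -1.61 to -0.92). Cxcl3, with the same 11 promoter bases as Cxcl1, had 36 reads in the library labelled WT and 2 in the library labelled KO (3.74 and 0.206 RPKM). Cxcl2, with those bases too, had 17 reads and 1 read (1.66 and 0.0967 RPKM; interval -9.49 to -1.43). Of the genes with identical capitals, Cxcl2 and Cxcl3 were thus low and lower in the library labelled KO, and Cxcl1 was abundant and close in both. A promoter window of Il16, a member in neither induced list, holds the same 11 bases, beginning 49 bases before the start. Il16 had 1.57 and 0.651 RPKM. The counting rule for reads shared between related genes such as Cxcl1, Cxcl2 and Cxcl3 is not given in the sources used here.

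Interleukin-1 genes were low. Il1a had 6.17 RPKM (115 reads) and 4.56 RPKM (86 reads; interval -0.85 to -0.02), and Il1b had 0 reads and 1 read. Ccl3 had 4 reads and 0 reads, and Ccl4 had none. The cytokine gene Tnf, from the list of other NF-kB targets, had 4 reads and 3 reads.

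**Figure D2:**
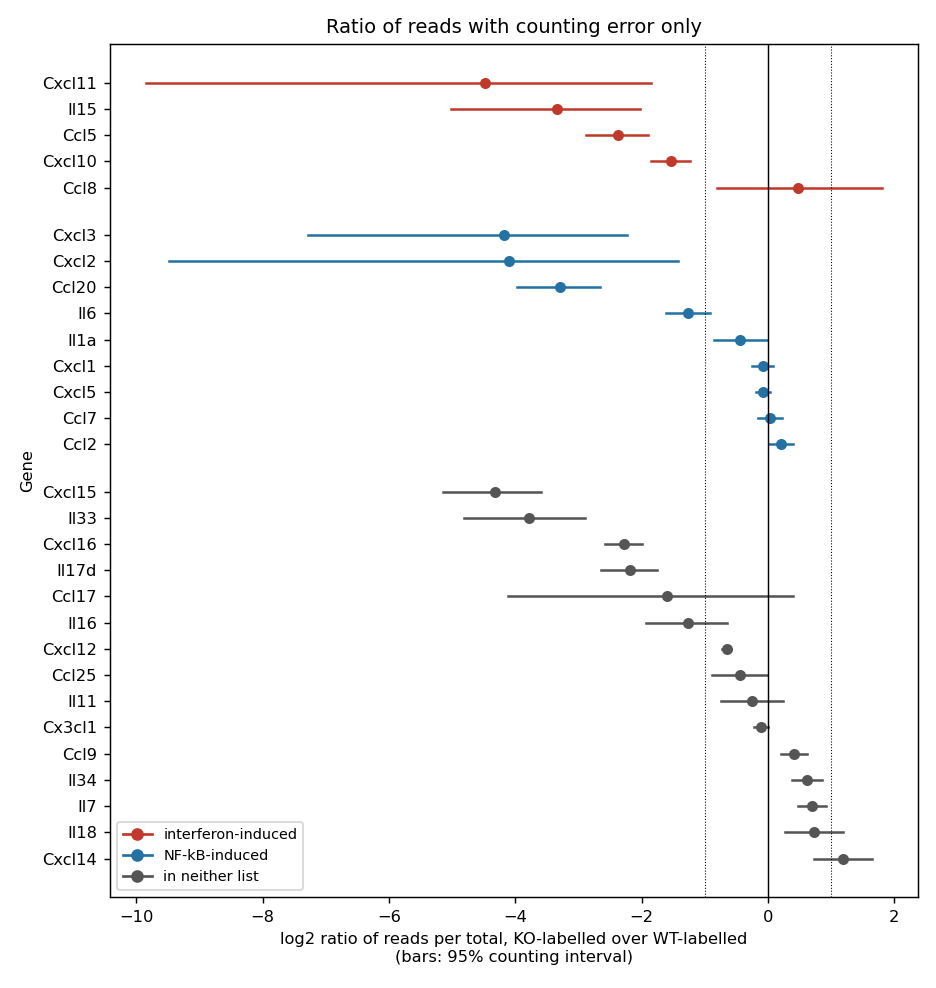
Log2 ratio of reads per library total, KO over WT, for the 29 compared members, with bars giving the exact 95% counting interval and dotted lines at 2-fold. Cxcl10, Ccl5, Il15 and Cxcl11 lie wholly left of the 2-fold line, as do Ccl20, Cxcl2 and Cxcl3, while the bars of Cxcl1, Cxcl5 and Ccl7 span 0.

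Of the 29 compared members, 16 had an interval wholly below 0, 6 wholly above 0, and 7 an interval that held 0. All 12 members at least 2-fold lower were among the 16. The other 4 were Cxcl12, Ccl25, Il1a and Il16. Intervals were not computed over all genes, so these counts have no background share. Genes with many reads leave 0 at small differences. Among the 19 NF-kB subunits and regulators below, all within 2-fold, 4 intervals lay wholly below 0 and 8 wholly above.

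Among the chemokines of neither induced list, Cxcl15 and Cxcl16 were lowest in the library labelled KO relative to the other. Cxcl15 (lungkine), a neutrophil attractant of the mouse known mainly from lung epithelium, had 15.8 RPKM (317 reads) and 0.788 RPKM (16 reads), 20.02-fold lower (interval -5.15 to -3.60). Cxcl16, a membrane-anchored ligand of Cxcr6, had 24.3 RPKM (562 reads) and 5.01 RPKM (117 reads), 4.85-fold lower (interval -2.58 to -1.99). Its receptor gene went the opposite way: Cxcr6 had 2.91 RPKM (52 reads) in the library labelled WT and 25.7 RPKM (465 reads) in the library labelled KO, 8.85-fold higher (interval 2.73 to 3.59). The other membrane-anchored chemokine, Cx3cl1 (fractalkine), was close, at 44.4 RPKM (1319 reads) and 41.1 RPKM (1233 reads; interval -0.23 to 0.00).

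Homeostatic chemokines, which place cells in tissues without inflammation, had 4 of 9 genes compared and 0 of them 2-fold apart (median log2 ratio -0.52). Of all genes compared, 7.46% were as much lower and 4.42% higher, so 0 of 4 is near those shares. Cxcl12, the stromal ligand of Cxcr4, had 60.1 RPKM (4069 reads) and 38.2 RPKM (2613 reads), 1.57-fold lower (interval -0.73 to -0.58). In the library labelled WT it had 0.568 reads per base, within a factor of 2 of the ceiling. Whether this compressed its ratio was not tested. Ackr3, the scavenger receptor of Cxcl12, had 32.9 and 26.6 RPKM, and Cxcr4 had 11 and 3 reads. Cxcl14 was the member with the largest ratio in the upward direction, at 3.36 RPKM (58 reads) and 7.63 RPKM (133 reads), 2.27-fold higher without a pseudocount (interval 0.73 to 1.65). Its promoter window held an ISRE match, as did that of Cxcl10, whose value was lower. Ccl25, a thymic and intestinal chemokine, had 8.97 RPKM (108 reads) and 6.58 RPKM (80 reads). Ccl17 had 9 and 3 reads (1.85 and 0.611 RPKM), a difference within counting error (interval -4.12 to 0.40). Ccl9, an inflammatory chemokine of the mouse, had 11.8 RPKM (336 reads) and 15.8 RPKM (453 reads; interval 0.21 to 0.62).

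Interleukins made by stromal cells went both ways. Of the 8 in that list, all were compared (median log2 ratio -0.42). In the library labelled KO 3 (37.5%) were at least 2-fold lower, against 7.46% of all genes. At least 2-fold higher were 0, against 4.42% of all genes. The lower ones were Il33, Il15 and Il6. Il33, a nuclear alarmin that acts through the receptor encoded by Il1rl1, had 6.10 RPKM (150 reads) and 0.443 RPKM (11 reads), 13.8-fold lower (interval -4.82 to -2.90). Il1rl1 itself was close, at 48.7 and 41.8 RPKM.

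Il7, Il34 and Il18, also of this list, were higher in the library labelled KO beyond counting error, though short of 2-fold. Il7, which supports lymphocyte precursors, had 12.1 RPKM (282 reads) and 19.6 RPKM (463 reads; interval 0.48 to 0.92). Il34, a second ligand of the Csf1 receptor, had 13.4 RPKM (236 reads) and 20.6 RPKM (365 reads; interval 0.37 to 0.86). Il18, an interleukin-1 family cytokine released after caspase cleavage, had 7.82 RPKM (64 reads) and 12.9 RPKM (107 reads; interval 0.27 to 1.196).

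Il11, a cytokine of the Il6 family, was close, with 4.17 RPKM (79 reads) and 3.50 RPKM (67 reads; interval -0.74 to 0.24). Il16, a chemoattractant of CD4+ cells, was low in both libraries, with 1.57 RPKM (74 reads) and 0.651 RPKM (31 reads; interval -1.92 to -0.65). Outside that list, Il17d, an interleukin-17 family member known mainly from tissues outside the immune system, had 21.1 RPKM (244 reads) and 4.63 RPKM (54 reads), 4.57-fold lower (interval -2.64 to -1.76).

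Members known from leukocytes were at or near 0. In the list of 14 lymphocyte and myeloid interleukins (Il2, Il3, Il4, Il5, Il9, Il10, Il12a, Il12b, Il13, Il17a, Il17f, Il21, Il22 and Il23a), none reached 1 RPKM and 7 had no read in either library. The largest were Il23a (2 and 8 reads), Il17f (4 and 2 reads) and Il5 (5 and 0 reads). Without any read in either library were 21 members in all: Ccl1, Ccl4, Ccl12, Ccl19, Ccl22, Ccl26, Ccl28, Cxcl13, Cxcl17, Xcl1, Il3, Il4, Il9, Il10, Il12a, Il17a, Il20, Il22, Il24, Il25 and Il31. A further 17 members had reads but stayed under 1 RPKM. Besides those given above, these were Ccl6 (8 and 9 reads), Il19 (7 and 1 reads), Il17c (4 and 1 reads), and Ccl11, Ccl24, Il2, Il12b, Il13, Il17b and Il21 with 1 read each. A count of 0 allows up to 3 reads, so such genes are undetected at this depth and not shown to be silent.

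**Figure D3:**
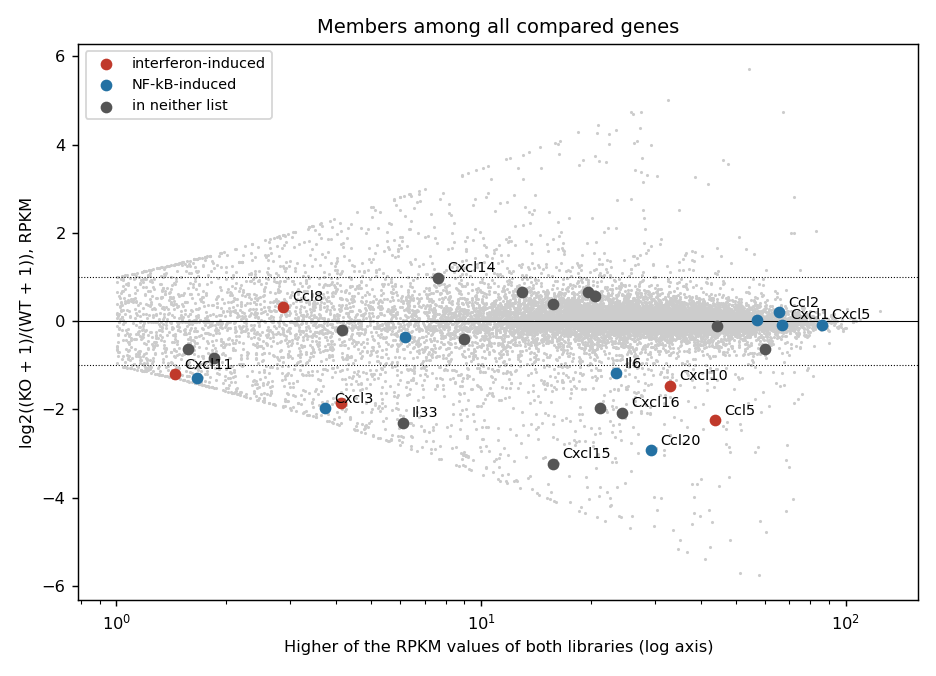
Log2 ratio on the scale of RPKM + 1 against the higher of both RPKM values (log axis) for all 13867 compared genes (grey) and the 29 members (coloured by list). The 5 members above 50 RPKM lie between -0.64 and 0.21, whereas 6 of the 8 members between 20 and 50 RPKM lie below the lower dotted line, which marks 2-fold.

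The share of lower members varied with level. Between 20 and 50 RPKM (the higher value of both libraries) 6 of 8 members were at least 2-fold lower, against 3.28% of the 6074 genes in that range. At 50 RPKM and above, the number was 0 of 5, against 2.54% of 1420 genes. It was 2 of 8 between 5 and 20 RPKM, against 10.0% of 4228 genes, and 4 of 8 between 1 and 5 RPKM, against 17.5% of 2145 genes. These ranges were chosen after the values were seen. All NF-kB-induced members close in both libraries, except Il1a, lay at 50 RPKM or above, and no interferon-induced member did. In the ranges that hold members of both lists, members of both were at least 2-fold lower. Between 20 and 50 RPKM these were Ccl20, Il6, Ccl5 and Cxcl10, and between 1 and 5 RPKM Cxcl2, Cxcl3, Cxcl11 and Il15. Ccl8, also between 1 and 5 RPKM, was within 2-fold. At 50 RPKM and above, list and level cannot be told apart, nor can they in the difference of the medians.

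Neighbouring genes of a chemokine cluster had unlike values. On chromosome 5, Cxcl3, Cxcl15, Cxcl1 and Cxcl2 follow each other with no other protein-coding gene between them in the RefSeq annotation, and Cxcl5 lies 2 protein-coding genes before Cxcl3. Within this row Cxcl5 and Cxcl1 were close in both libraries, and Cxcl3, Cxcl15 and Cxcl2 were at least 2-fold lower in the library labelled KO. Of the 13 members on chromosome 5, 8 were compared and 6 were at least 2-fold lower, against 7.46% of all genes compared. On chromosome 11, Ccl2, Ccl7, Ccl11, Ccl12, Ccl8 and Ccl1 are neighbours in the same sense. Ccl2 and Ccl7 were abundant in both libraries, while Ccl11, Ccl12 and Ccl1 had at most 1 read. Ccl5 and Ccl9 are likewise neighbours, and Ccl5 was lower and Ccl9 slightly higher in the library labelled KO.

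Receptor genes were 2-fold apart in both directions. Of 22 chemokine receptor genes, 5 were compared, with Cxcr6 the 1 that was 2-fold or more higher and 0 that were as much lower (median log2 ratio -0.10). This is 1 of 5, against the 4.42% of all genes. Ackr3, given above, was the only other one at 5 RPKM or more. The receptor gene Ccrl2 had 4 reads and 1 read. Of 40 interleukin receptor genes, 22 were compared (median -0.30). Their ratios were below 0 in 16 and above 0 in 6, against 6826 and 7041 of all genes compared. At least 2-fold lower were 3, and 1 was as much higher. The lower ones were 13.6% and the higher one 4.55% of those compared, against the 7.46% and 4.42% of all genes. The ends were Il20ra (14.1 and 1.81 RPKM) and the decoy receptor gene Il13ra2 (6.27 and 1.30 RPKM) on the lower side, and Il20rb (2.05 and 5.16 RPKM) and Il6ra (9.91 and 15.9 RPKM) on the upper. Il20ra and Il20rb encode both chains of a receptor whose ligands Il19, Il20 and Il24 had at most 7 reads. Csf1r, the third gene on the lower side, had 64 and 3 reads.

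The signalling chains Il6st and Il1r1 were abundant and within 2-fold in both libraries. Il6st (gp130), used by Il6 and Il11, had 64.2 and 58.2 RPKM, and Il1r1, the interleukin-1 receptor, had 33.3 and 24.5 RPKM (interval -0.55 to -0.33). Il15ra, which presents Il15, had 7.28 and 3.84 RPKM (139 and 74 reads). Il11ra1 had 19.9 and 12.5 RPKM, a level that may share reads with near-identical copies of the gene. Of the secreted antagonists, Il1rn, which blocks Il1r1, had 56.5 RPKM (1436 reads) and 15.9 RPKM (409 reads), 3.55-fold lower (interval -1.99 to -1.67). Il18bp, which binds Il18, had 4.76 and 5.23 RPKM.

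NF-kB subunits and regulators were close in both libraries, with 0 of 19 genes 2-fold apart and a median log2 ratio of 0.04. Of all genes compared, 7.46% were at least 2-fold lower and 4.42% higher. Between 20 and 50 RPKM these shares were 3.28% and 1.63%. A count of 0 in so short a list is near them. Rela had 30.3 and 36.1 RPKM and Nfkb1 49.997 and 47.7 RPKM. The feedback inhibitors Nfkbia (59.0 and 57.0 RPKM) and Tnfaip3 (19.1 and 21.9 RPKM), themselves NF-kB targets, were close too. Nfkbia had 0.557 and 0.544 reads per base, within a factor of 2 of the ceiling, and whether this compressed its difference was not tested. The ends of the list were Bcl3 (34.3 and 27.4 RPKM) and Relb (34.1 and 29.2 RPKM), and Traf6 (13.1 and 18.7 RPKM) and the inhibitor gene Nfkbie (13.4 and 24.5 RPKM). Among 15 other NF-kB target genes, 12 were compared, 2 were 2-fold or more lower and 1 as much higher (median -0.03). These were 16.7% and 8.33% of those compared, against the 7.46% and 4.42% of all genes. Lcn2 (lipocalin-2; 81.5 and 34.1 RPKM) and Saa3 (69.0 and 49.1 RPKM) had the lowest ratios at 5 RPKM or more, and Lif (16.7 and 23.6 RPKM) and Traf1 (2.87 and 7.12 RPKM) the highest. The other gene 2-fold lower was Csf2, with 12 reads and 1 read.

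Interferon-stimulated genes outside the members were lower with the interferon-induced members. Of 22 in a list of such genes, 20 (90.9%) were at least 2-fold lower, against 7.46% of all genes compared (median log2 ratio -3.09). This list too was chosen with earlier results of these data known. Ifi44 and Oasl2 had the lowest ratios (-5.12 and -4.74), and Stat2 (-0.71) and Irf1 (0.35) the highest. Irf1, a factor of interferon and of NF-kB responses, had 12.6 and 16.3 RPKM. The ratio of Cxcl10 lay above the median of this list.

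**Figure D4:**
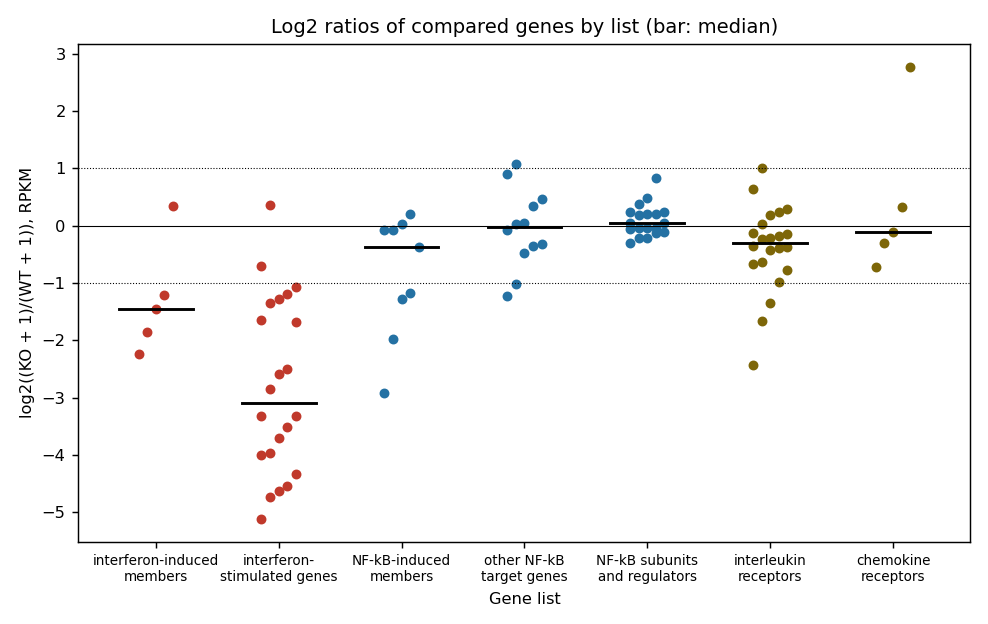
Log2 ratios, KO over WT on the scale of RPKM + 1, of the compared genes of 7 lists, 1 point per gene, with the median as a bar and dotted lines at 2-fold. The bars of the interferon-induced members (-1.46) and interferon-stimulated genes (-3.09) lie below the lower dotted line, and those of the NF-kB lists and the receptors lie between -0.37 and 0.04.

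Markers of other cell types were mostly near 0, and some moved with the lower members. Of 14 leukocyte markers, Cpa3, Emr1, Fcer1a, Ms4a1 and Tyrobp had no read and Ptprc had 4 and 0 reads. The list summed to 32.9 and 34.9 RPKM, most of it from Cd14 (19.7 and 23.7 RPKM), Cd68 (5.15 and 7.40 RPKM) and Lyz2 (5.91 and 3.67 RPKM). The sum thus says little of the other markers. Of the 4 compared, 2 ratios were below 0 and 2 above. Csf1r, with 64 and 3 reads, was the 1 at least 2-fold lower, and 0 were as much higher. Itgam, under the floor, had 6 and 1 reads. The 5 endothelial markers summed to 4.00 and 0.409 RPKM, with Tek at 106 and 6 reads, and the 5 epithelial markers to 2.35 and 1.43 RPKM, with Cdh1 at 75 and 3 reads and Krt8, in the other direction, at 1 and 18 reads. The 9 fibroblast markers summed to 368 and 384 RPKM, but Dcn (29.7 and 12.3 RPKM) and Thy1 (9.40 and 72.1 RPKM) differed in opposite directions. Next to these ends came Lum (19.1 and 11.3 RPKM) and Col1a1 (49.98 and 57.1 RPKM). In bulk RNA, fewer cells of a type and less RNA per cell cannot be told apart, and the part of other cells in the member values was not tested.

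Editing touched the members at 1 listed site. Of all listed edited sites in both libraries, the only one assigned to a member was an intronic site of Ccl25 in a repeat on chromosome 8 (mm9, 4338123, plus strand). It was edited in 3 of 5 reads in the library labelled WT (60.0%, Wilson 95% interval 23.1 to 88.2) and was not in the other list, which gives no depth for unlisted positions. No site was listed for the receptor, antagonist, NF-kB or interferon-stimulated genes named here.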

How the data were processed

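Single-end poly(A)+ RNA-seq of cultured fibroblasts gave 1 library per genotype, per the labels. The RPKM values, a log2 fold change and the GFOLD value are those of the authors' deposited table, and the edited sites with their read counts and editing level as a fraction are from the deposited lists. STAR 2.4.0d, SAMtools and build mm9 are named in the submitters' processing notes. For the gene annotation, counting rule, strand use and site caller, details were not given in the sources used here.

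The authors' log2 fold change is that of reads plus 1, shifted by a constant (0.0371). With it and the RPKM values, the library totals and the whole reads of each printed gene were recovered, which was tested on simulated data. Reads are given where a single pair returned the printed digits. RPKM stayed the measurement. Log2 ratios used a pseudocount of 1 RPKM and a floor of 1 RPKM in at least one library. Intervals are 95% (Clopper-Pearson given the sum of reads, or Wilson) and cover counting error only, since without molecular identifiers reads need not be separate molecules.

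Every compared member is named. From the other lists, the 2 highest and 2 lowest ratios at 5 RPKM or more are named, with chosen receptors, regulators and antagonists. A further gene of the chemokine receptor list is not reported here. Other pseudocounts (0.1 and 0.5), floors, centring and the GFOLD value were tried. Members and lists were chosen with earlier results of these data known. No p-value was computed. Python 3.11.15 with pandas 2.3.3, scipy 1.17.1 and matplotlib 3.10.9 was used.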

Additional observations from a re-analysis of the deposited data

How the results depend on the processing

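With 1 library per genotype, no library could be left out. No paired analysis was possible because each genotype has 1 library. All 12 members at least 2-fold lower kept that call under both smaller pseudocounts, under centring on the median of all genes and without a filter. The authors' deposited GFOLD value dropped Il6 (-0.82), and a floor of 5 RPKM left 8, without Cxcl2, Cxcl3, Cxcl11 and Il15. The number at least 2-fold higher became 1 (Cxcl14) with a pseudocount of 0.1 or 0.5 RPKM. Ccl17 joined the lower ones under both, and Il16 under 0.1. The difference between the NF-kB-induced and interferon-induced medians ranged from 0.82 (no filter) to 1.93 (pseudocount of 0.1).

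A pseudocount of 0.1 also gave 1 chemokine receptor at least 2-fold lower, and an interferon-stimulated median of -4.39. Either smaller pseudocount gave 2 other NF-kB targets at least 2-fold higher. By GFOLD, the medians of the members and of the NF-kB-induced members were 0 and that of the interleukin receptors -0.058, with 0 interleukin receptors at 1 or above and 0 other NF-kB targets past 1 in either direction. A floor of 5 RPKM left 2 interferon-induced and 2 NF-kB-induced members and 1 other NF-kB target at least 2-fold lower, and a chemokine receptor median of 1.24 over Ackr3 and Cxcr6. Without a filter the median of the members was 0, since 21 had no read. Depth limits the genes with few reads, and whether the ceiling limits abundant ones was not tested.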
